A study of Oryza sativa Japonica Group with 6 samples.

Results

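Beta-glucosidases of glycoside hydrolase family 1 were followed in anthers of the rice mutant dao and of wild-type rice (Oryza sativa, Japonica group). Members were all probe sets of the Affymetrix rice genome array whose gene has a symbol or synonym made of BGLU and a number. The gene table held 31 such genes. Of these, 27 had at least 1 listed probe set, among 17905 genes on the array that had one, which gave 39 member probe sets of 57381. BGLU2, BGLU4, BGLU21 and BGLU24 had no probe set paired with them in the table and were not analysed here. No member shared its probe set with another gene in that table.

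The dao group was 3 arrays of the dao mutant and the wild-type group was 3 arrays of the wild type, numbered 1 to 3 in each group and called biological replicates in their titles. Both groups were mature anthers at anthesis from a japonica variety grown to flowering in the field. DAO encodes the dioxygenase for auxin oxidation, and the sources used here do not give the lesion of the mutant. A free-text line of the labels disagrees with the titles and the tissue field: it names 3-week-old seedlings for all arrays, and seedlings called Epi-df, not dao, for the dao arrays. Groups here follow the titles.

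Family 1 beta-glucosidases remove a terminal beta-linked glucose from small glucosides and short oligosaccharides. In plants they release hormones, monolignols (the building blocks of lignin) and defence compounds from stored glucose conjugates, and they trim oligosaccharides of the cell wall. Some members move the glucose to another acceptor instead of to water. The family is encoded in rice by many genes, several of them in tandem groups.

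Several facts about the arrays bear on every value. DAO signal was 1551, 1168 and 1391 on dao arrays 1 to 3, against 480, 883 and 686 on wild-type arrays 1 to 3 (log2 difference 1.04, SE 0.22, adjusted p = 0.0251). It was thus higher on the arrays labelled dao, and where the probes lie relative to the lesion was not analysed here, so this value checks no label. The third array of each group lay between the other two in nearly all probe sets where these differed by at least 2-fold: in 1223 of 1236 probe sets on the dao arrays (98.9%) and in 1891 of 1918 on the wild-type arrays (98.6%). Over all tested probe sets, most of which differ less between arrays, the share was 55.8% on the dao arrays and 53.1% on the wild-type arrays. If the third array of a group is not independent, p-values are too small, so results are also given without both arrays numbered 3. All 27 hybridisation control probe sets were lower on every dao array (median log2 difference -0.38). The ratio of 3′ to 5′ signals, a check of RNA quality, was available for 5 pairs of control probe sets, and these did not move one way. It was lower on every dao array for ubiquitin, at 2.89 to 3.16 on dao arrays and 3.36 to 3.90 on wild-type arrays, and for 1 of 2 GAPDH pairs, at 54.1 to 65.2 on dao arrays and 80.1 to 116 on wild-type arrays. For actin it was 38.3 to 71.9 on dao arrays and 36.2 to 40.7 on wild-type arrays, and for the other GAPDH pair and cyclophilin the groups overlapped as well. Their part in the results was not tested.

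The labelled tissue was checked by marker genes. All 5 measured mature pollen markers were bright, among them the pollen beta-expansin EXPB9 at 11540, 11242 and 11360 on dao arrays and 12682, 12506 and 13036 on wild-type arrays. None of the 5 passed the test, and their summed signal was 29543 to 31042 on dao arrays and 33278 to 35724 on wild-type arrays. Of 8 tested tapetum markers and 4 tested green tissue markers none passed, with median log2 differences of 0.35 and 0.29. The tapetum markers C6, MSP1 and CP1 were higher on every dao array. C6 had 531, 149 and 438 on dao arrays, against 87.6, 125 and 106 on wild-type arrays (log2 1.63, limma adjusted p = 0.0524). RAFTIN1 and PTC1 went the other way, at log2 -0.36 and -0.087. Of 4 tested genes of the pistil list, which also holds the stamen identity gene SPW1, 1 rose: the ovule identity gene MADS13, at 29.4, 20.4 and 26.1 on dao arrays, against 5.49, 6.58 and 6.47 on wild-type arrays. The summed signal of that list was 4639 to 5255 on dao arrays and 4123 to 4386 on wild-type arrays, most of it from SPW1, at 3856 to 4468 on dao arrays and 3581 to 3621 on wild-type arrays. With SPW1 left out, a choice made after its values were seen, the sums were 761 to 787 on dao arrays and 515 to 766 on wild-type arrays, which overlap. Most of that sum came from MADS58, at 717 to 743 on dao arrays and 490 to 744 on wild-type arrays, so it says little about the dim genes. MADS21, too dim to be tested, was higher on every dao array, at 5.73, 4.10 and 3.84 against 3.30, 3.27 and 3.02 on wild-type arrays. DL, the carpel identity gene, was dim in both groups, at 12.9, 15.4 and 13.5 on dao arrays and 16.7, 11.7 and 16.5 on wild-type arrays. No marker was at 0.

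Of the 39 member probe sets, 28 from 22 genes had a mean log2 signal at or above the 40th percentile of the array (a signal of 6.33) and were tested, and 11 lay under it. Differences are dao minus wild type on the log2 scale, tested with limma over all 34355 probe sets that passed this filter. A member was called when its adjusted p was 0.05 or less and its difference at least 2-fold. The study itself names these limits with a q-value, in place of which the adjusted p was used here. In dao anthers 4 members rose: BGLU8, BGLU22, BGLU27 and BGLU31. None fell, and 24 did not pass. That is 14.3% of the tested members, where 3.37% of all tested probe sets passed, 2.03% of them higher and 1.34% lower in dao. By genes, represented by their brightest probe set, 18.2% of 22 members passed, where 3.83% of 15612 genes did. Without the fold limit 9 members from 8 genes had an adjusted p of 0.05 or less, 7 higher and 2 lower. That is 32.1% of the members, where 9.89% of all tested probe sets did so, 6.53% higher and 3.35% lower. Of the 15612 genes by their brightest probe set 13.1% did so, 10.4% higher and 2.68% lower. The members' share by brightest probe set was not counted for this rule. In whole anthers, a different number of cells of a type and a different amount of RNA per cell cannot be told apart.

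**Figure D1:**
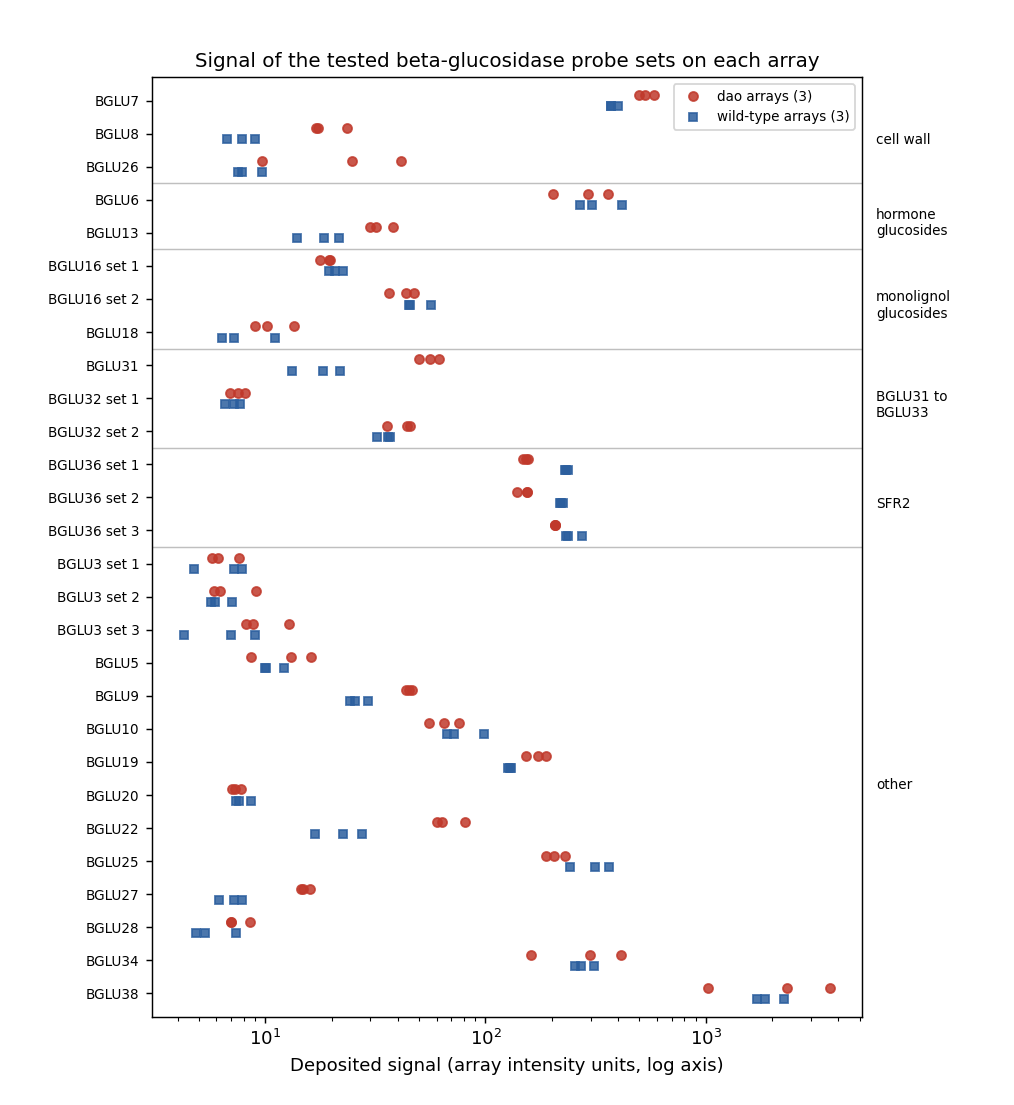
Deposited signal (log axis) of the 28 tested member probe sets on each array, with red circles for the 3 dao arrays and blue squares for the 3 wild-type arrays, grouped by what the enzymes are known to act on. For BGLU8, BGLU22, BGLU27 and BGLU31 every dao array lies right of every wild-type array, and for all 3 probe sets of BGLU36 every dao array lies left of them.

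The first group acts on oligosaccharides of the cell wall. BGLU8 (LOC4333842), a close relative of BGLU7, had a signal of 23.5, 17.3 and 16.9 on dao arrays 1 to 3, against 7.87, 6.72 and 8.97 on wild-type arrays 1 to 3. The groups did not overlap, and the wild-type values were near the filter. The mean was 19.2 ± 3.68 in dao anthers and 7.85 ± 1.12 in wild type (SD, n = 3 each), a log2 rise of 1.29 (SE 0.18, adjusted p = 0.00802). BGLU7 (LOC4333841), a well-studied rice enzyme that hydrolyses short gluco-oligosaccharides, lies next to BGLU8 in the order of genes. It had 496, 580 and 528 on dao arrays and 399, 371 and 370 on wild-type arrays. All dao values were higher, with a log2 difference of 0.49 that was under the 2-fold limit (SE 0.10, adjusted p = 0.0262). The table also gives BGLU7 the synonym BGLU1, a name that LOC4324050 bears as well, and BGLU1 below means LOC4324050.

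BGLU26 (LOC4344146), a rice enzyme that also has mannosidase activity, was chosen for its values. It had 41.3, 9.65 and 24.8 on dao arrays, against 7.51, 9.68 and 7.81 on wild-type arrays. Dao array 2 lay inside the wild-type range, while dao arrays 1 and 3 lay above it. The log2 difference of 1.37 had a wide interval, from 0.31 to 2.44 at 95%, and did not pass (adjusted p = 0.103). With 1 array left out it was between 0.90 without dao replicate 1 (adjusted p = 0.243) and 1.95 without dao replicate 2, which alone of the 6 was past the threshold (adjusted p = 0.00645).

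The second group is known to act on glucosides of hormones. BGLU13 (LOC4336146), which hydrolyses the glucoside of the jasmonate relative tuberonic acid, had 31.9, 38.1 and 29.8 on dao arrays, against 21.7, 18.5 and 14.0 on wild-type arrays. Its groups did not overlap, and the log2 difference of 0.90 was under the 2-fold limit (SE 0.20, adjusted p = 0.0308). Without wild-type replicate 1 it passed, at 1.04 (adjusted p = 0.0209), and without any of the 5 other arrays its adjusted p was above 0.05, at 0.0507 to 0.124. Its other probe set was under the filter, with signals between 5.57 and 6.41. BGLU6 (LOC4332041), an enzyme that can release abscisic acid from its glucose ester, had 359, 202 and 292 on dao arrays and 416, 269 and 305 on wild-type arrays. The groups overlapped widely, and the log2 difference was -0.23, with a 95% interval from -0.78 to 0.32 (adjusted p = 0.593). For BGLU12, the other tuberonic acid glucoside hydrolase among the members, both probe sets were under the filter, with signals between 2.66 and 5.07.

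Of the third group, which acts on monolignol glucosides, none of 3 tested probe sets passed. BGLU18 (LOC4336391) stood at log2 0.42 (adjusted p = 0.307), and both probe sets of BGLU16 (LOC4336389) at -0.13 and -0.20 (adjusted p = 0.600 and 0.485). The probe set of BGLU14 was under the filter, at 5.21, 6.42 and 4.71 on dao arrays and 4.48, 4.44 and 3.78 on wild-type arrays.

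BGLU31 (LOC4347545) had the largest difference of the 28 tested members. It is a transglucosidase, which in rice moves glucose between phenolic acids, flavonoids and hormones. Its signal was 61.6, 49.7 and 55.9 on dao arrays 1 to 3, against 21.9, 18.4 and 13.3 on wild-type arrays 1 to 3. Every dao array was more than double every wild-type array. The mean was 55.7 ± 5.95 in dao anthers and 17.9 ± 4.34 in wild type (SD, n = 3 each), a log2 rise of 1.67, or 3.18-fold (SE 0.21, adjusted p = 0.00554). Its neighbour BGLU32 (LOC4347546) stood at log2 0.24 and 0.067 on 2 probe sets (adjusted p = 0.368 and 0.773), and the next gene, BGLU33, was under the filter.

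BGLU36 (LOC4351127) is the rice SFR2. In Arabidopsis SFR2 remodels galactolipids of the chloroplast outer envelope and protects against freezing. Its first probe set had 152, 157 and 148 on dao arrays, against 232, 238 and 230 on wild-type arrays. The second had 155, 155 and 139 on dao arrays, against 221, 218 and 225 on wild-type arrays. In the third the values were 207, 207 and 208 on dao arrays and 275, 238 and 232 on wild-type arrays. All dao values were below all wild-type values on each probe set. The log2 differences were -0.62, -0.57 and -0.26, all under the 2-fold limit, with adjusted p-values of 0.0128, 0.0196 and 0.189. The first and second are built on the same cDNA in the table and are no independent measurements.

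**Figure D2:**
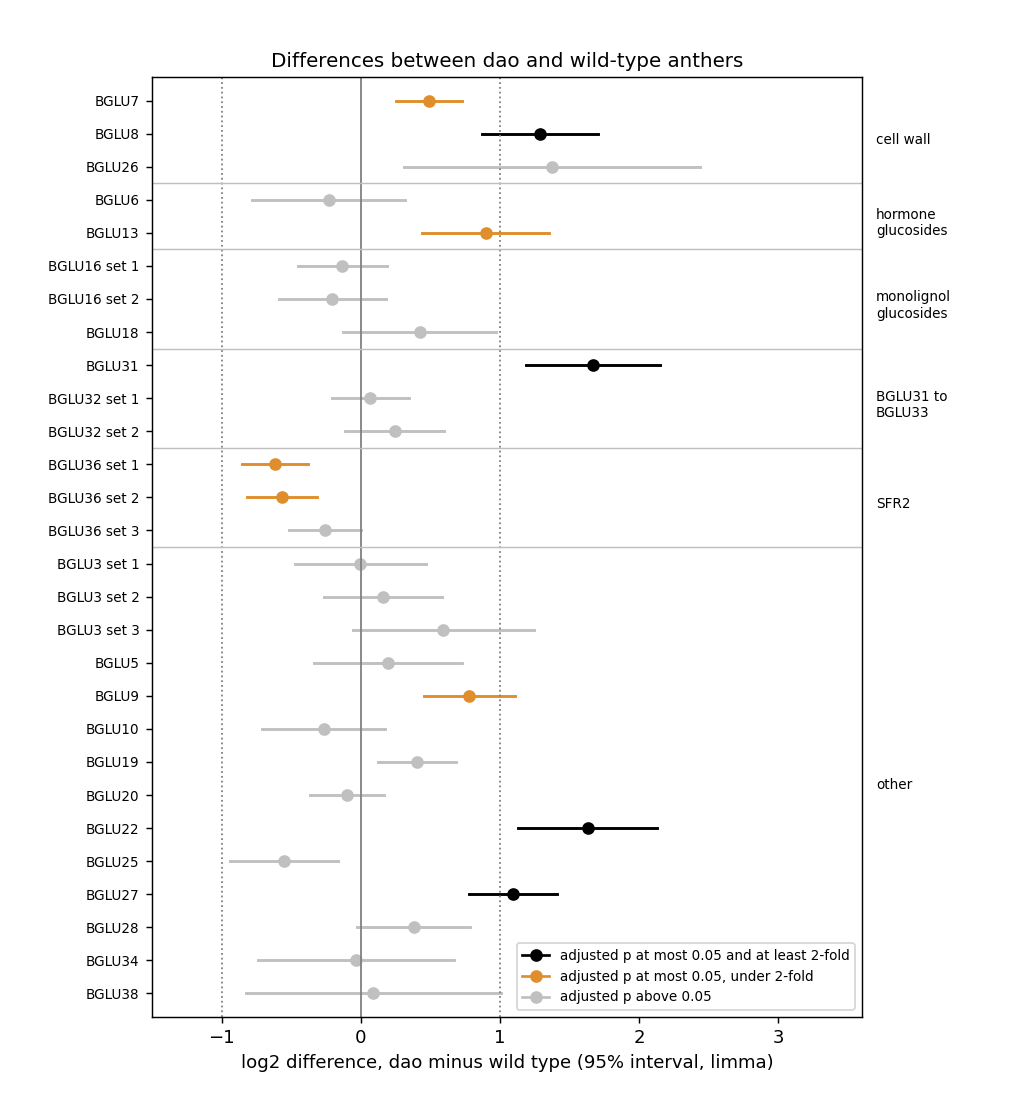
Log2 difference, dao minus wild type, of the 28 tested member probe sets with the 95% interval of the limma fit; dotted lines mark 2-fold. Black marks the 4 members past the threshold, BGLU8, BGLU22, BGLU27 and BGLU31; orange marks 5 probe sets at an adjusted p of 0.05 or less but under 2-fold, of which both BGLU36 sets are negative.

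The other members have no role given here. BGLU22 (LOC4338560) had 81.1, 60.2 and 63.2 on dao arrays 1 to 3, against 22.6, 27.5 and 16.8 on wild-type arrays 1 to 3. The groups were far apart, with 68.2 ± 11.3 in dao anthers and 22.3 ± 5.35 in wild type (SD, n = 3 each). It rose by 1.63 on the log2 scale, or 3.09-fold (SE 0.22, adjusted p = 0.00673).

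BGLU27 (LOC4345995) was dim in both groups. It had 14.5, 14.8 and 15.9 on dao arrays, against 6.17, 7.88 and 7.20 on wild-type arrays, and rose by 1.10 on the log2 scale (SE 0.14, adjusted p = 0.00554). The dao arrays lay close together, and wild-type array 1 was under the filter's signal.

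BGLU9 (LOC9269478) had 46.6, 43.8 and 45.0 on dao arrays, against 24.2, 29.3 and 25.6 on wild-type arrays. The groups did not overlap, and the log2 difference of 0.78 was under the 2-fold limit (SE 0.14, adjusted p = 0.0168). BGLU19 (LOC4338556) also had no overlap, at 188, 153 and 173 on dao arrays and 129, 130 and 127 on wild-type arrays, but did not pass on adjusted p (log2 0.41, adjusted p = 0.0751). BGLU25 (LOC4341870) was lower on all dao arrays, with 188, 229 and 205 against 241, 364 and 315 on wild-type arrays, and did not pass either (log2 -0.55, adjusted p = 0.0790). With 1 array left out the adjusted p of BGLU19 was 0.0454 to 0.256 and that of BGLU25 0.0229 to 0.253, lowest without dao replicate 2 for BGLU19 and without wild-type replicate 1 for BGLU25, and neither reached 2-fold. In all, groups did not overlap in 12 of the 28 tested members, or 42.9%, where 31.4% of all tested probe sets were without overlap. Of these 12, 8 were higher and 4 lower in dao, where 17.9% of all tested probe sets were higher and 13.5% lower without overlap.

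BGLU38 and BGLU34 varied more among the dao arrays than between the groups. BGLU38 (LOC4352082) had 3650, 1026 and 2336 on dao arrays, against 2272, 1714 and 1863 on wild-type arrays. Dao array 1 was above and dao array 2 below all wild-type arrays, a 3.56-fold range within dao and a 1.33-fold range within wild type. The log2 difference of 0.090 had a 95% interval from -0.83 to 1.01 (adjusted p = 0.913).

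BGLU34 (LOC4348315) had 412, 161 and 298 on dao arrays and 255, 310 and 270 on wild-type arrays, with a log2 difference of -0.036 (95% interval -0.74 to 0.67, adjusted p = 0.955). Its dao arrays were in the same order as those of BGLU38. Neither difference passed the test, and with intervals this wide its size and direction are not determined.

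The order with dao array 1 highest, 3 between and 2 lowest was found in 12 of the 28 tested members and in 31.1% of all tested probe sets. The 12 include BGLU38, BGLU34, BGLU26, BGLU6 and, with all dao arrays above wild type, BGLU22 and BGLU31. It was also the order of marker sums of other cell types. The summed signal of 9 tapetum markers was 5948, 2199 and 4847 on dao arrays 1 to 3, and 2254, 2321 and 2283 on wild-type arrays. Most of it came from RTS, at 4684, 1541 and 3822 on dao arrays and 1684, 1629 and 1676 on wild-type arrays. The summed signal of 5 green tissue markers was 4865, 1972 and 3892 on dao arrays and 3499, 1967 and 2466 on wild-type arrays. In that list CAB2R, rcaA1 and rbcS had this order on the dao arrays, and GLO1 had the reverse, at 706, 917 and 792. The part of these cells in the members' values was not tested. Dao array 2 was the lowest of its group in 13 of the 28 tested members, and in 39.4% of all tested probe sets. The dao arrays were at least 2-fold apart in 3 members, BGLU26, BGLU34 and BGLU38, where 3.74% of all tested probe sets were so, and the wild-type arrays in 1 member, a probe set of BGLU3, where 5.79% were.

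**Figure D3:**
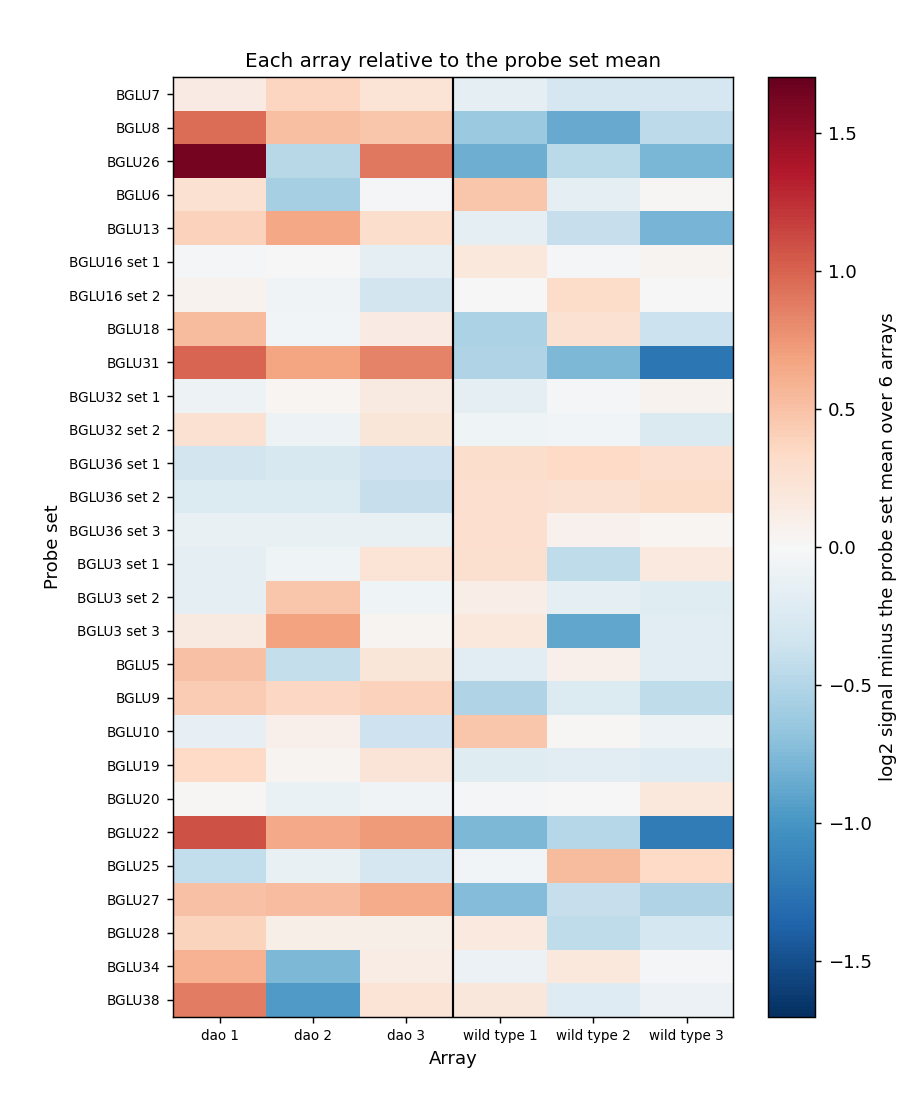
Log2 signal of each tested member probe set on each array minus its mean over the 6 arrays (colour, red for above and blue for below), with the 3 dao arrays left of the 3 wild-type arrays. BGLU31, BGLU22 and BGLU8 are red on every dao array, while BGLU38, BGLU34 and BGLU26 are red on dao arrays 1 and 3 and blue on dao array 2.

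The remaining tested members did not pass. BGLU3 stood at log2 -0.0054, 0.16 and 0.59 on its 3 probe sets, BGLU5 at 0.20, BGLU10 at -0.27, BGLU20 at -0.099 and BGLU28 at 0.38, with adjusted p-values from 0.217 to 0.990. Of the 28 tested members, 2 had only their dao mean above the filter, and neither passed. The 11 probe sets under the filter had signals from 2.66 to 7.998 and log2 differences from -0.11 to 0.45. They were the only probe sets of BGLU1, BGLU12, BGLU14, BGLU30 and BGLU33 and further ones of BGLU5, BGLU10 and BGLU13. In 3 of them, of BGLU5, BGLU12 and BGLU14, all dao values were higher than all wild-type values. How often this occurs over all probe sets under the filter was not counted. Over the tested ones it was 17.9%. The median difference of the tested members was log2 0.18, beside -0.0052 over all tested probe sets and 0.11 over the brightest probe set of each gene. The members' median depended on the setting: it was -0.036 with the filter at the 60th percentile, 0.37 without dao replicate 2 and 0.34 without both arrays numbered 2.

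All 4 genes that rose lie in groups of neighbouring members in the gene order of assembly ASM3414082v1. With at most 4 other genes between members, 20 of the 31 genes form 7 such groups, and 15 of the 22 tested genes are in them. Each gene that rose was set beside the other tested genes of its group, none of which was past the threshold. These 5 pairs were thus chosen for unlike calls, and their differences are a description without a test. The log2 difference of BGLU31 was 1.42 above that of its neighbour BGLU32, that of BGLU22 was 1.22 above BGLU19 and 1.73 above BGLU20, that of BGLU8 was 0.80 above BGLU7, and that of BGLU27 was 0.72 above BGLU28. Members of 1 group can be alike in sequence, and probe sets may then cross-hybridise, which was not tested here.

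The 4 calls held with each of the 6 arrays left out in turn, with adjusted p-values of at most 0.0490 for BGLU22, 0.0475 for BGLU31, 0.0469 for BGLU27 and 0.0454 for BGLU8. The lowest differences in these fits were log2 1.44 for BGLU22, 1.47 for BGLU31 and 1.14 for BGLU8. For BGLU27 the lowest was 1.00004, without wild-type replicate 1, so its call was then barely at the 2-fold limit. Of the 5 probe sets at an adjusted p of 0.05 or less but under 2-fold, each lost that adjusted p with some array left out, and the highest values were 0.137 for BGLU7, 0.124 for BGLU13, 0.0958 for BGLU9 and 0.0901 and 0.120 for the first and second probe sets of BGLU36. Without both arrays numbered 3 limma called 0 of all 34355 probe sets, with 3481 (10.1%) at an unadjusted p of 0.05 or less and 9 of the 28 members among them. The differences of the 4 genes were then log2 1.49 for BGLU22, 1.47 for BGLU8, 1.46 for BGLU31 and 1.07 for BGLU27, with adjusted p-values from 0.277 to 0.298. In these 4 genes the third array lay between the other two in 3 of 8 groups of arrays, where over all tested probe sets it did so in 55.8% on dao arrays and 53.1% on wild-type arrays. Their signals, from 6.17 to 81.1, were dim, and with 32 added to every signal before log2 all 4 fell under the 2-fold limit, at log2 0.88 for BGLU22, 0.82 for BGLU31, 0.36 for BGLU8 and 0.27 for BGLU27, with adjusted p-values from 0.00512 to 0.0111.

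**Figure D4:**
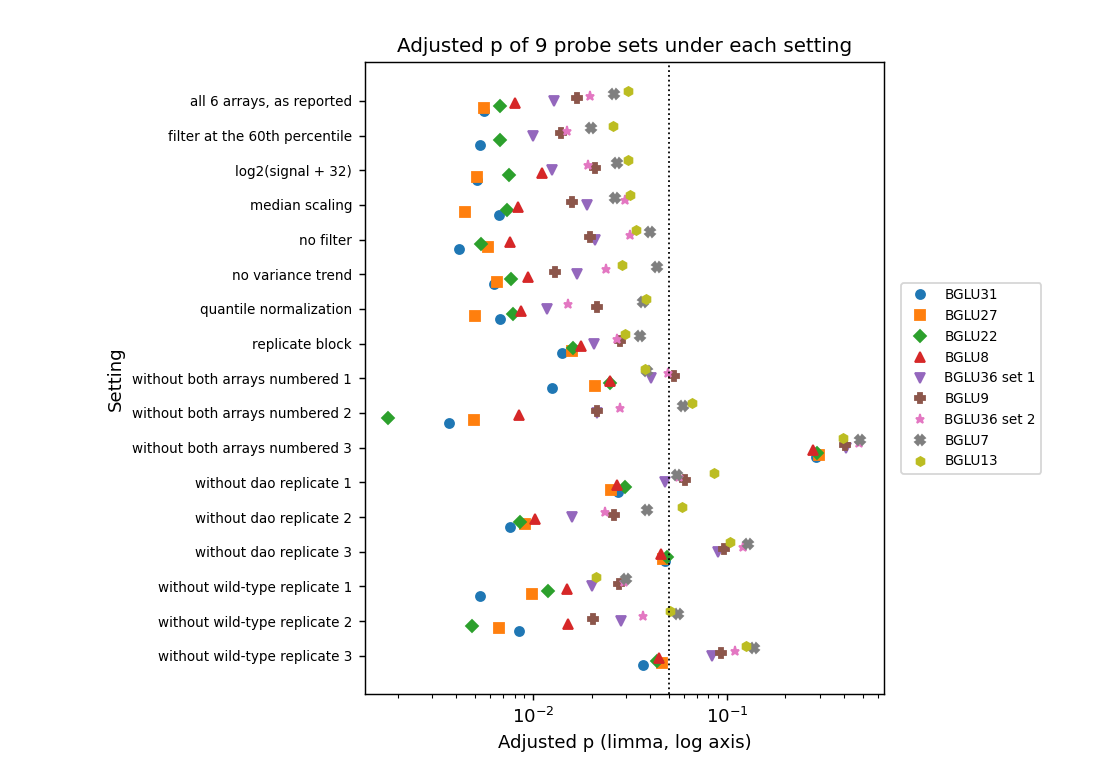
Adjusted p (log axis) of the 9 member probe sets at 0.05 or less in the reported fit, under that fit and 16 other settings; the dotted line is 0.05. BGLU8 and BGLU27 have no point at the stricter filter because they are under it, and without both arrays numbered 3 all 9 lie right of the line, from 0.277 to 0.487.

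Other glycoside hydrolases, and genes of monolignol and hormone pathways, were counted by lists of gene symbols. Of 28 other tested glycoside hydrolases (chitinases, amylases, invertases and endoglucanases), 2 rose, 0 fell and 26 did not pass (median log2 0.43). The 2 that rose were the endoglucanases GLU10, at 28.9, 19.5 and 26.3 on dao arrays and 8.37, 13.8 and 9.64 on wild-type arrays, and GLU1, at 239, 170 and 220 on dao arrays and 84.1, 131 and 97.0 on wild-type arrays. At an adjusted p of 0.05 or less without the fold limit there were 6, 4 higher and 2 lower, with GLU13 among the lower ones (log2 -0.78, adjusted p = 0.0246). Of 21 monolignol genes 3 rose and 18 did not pass, led by the 4-coumarate ligase 4CL5 (log2 2.85, adjusted p = 0.00897), with a median of log2 0.52 over the list. Over all genes 3.08% rose and 0.749% fell, and 13.1% had an adjusted p of 0.05 or less, 10.4% higher and 2.68% lower.

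Among hormone genes, 2 of 11 cytokinin genes rose, both of them cytokinin oxidases, which break the hormone down. CKX11 had 493, 422 and 452 on dao arrays, against 142, 165 and 138 on wild-type arrays (log2 1.62, adjusted p = 0.00156). CKX4 had 68.0, 58.5 and 61.6 on dao arrays, against 20.4, 25.1 and 17.9 on wild-type arrays (log2 1.58, adjusted p = 0.00365). Of 4 abscisic acid genes 0 passed at the threshold, and ABA8OX1, a hydroxylase that breaks abscisic acid down, stood at log2 0.67 (adjusted p = 0.0382). Of 10 gibberellin genes 1 rose, GA20OX3 (log2 1.16, adjusted p = 0.0314). CPS1 and CPS2, copalyl diphosphate synthases, were lower on every dao array, with log2 differences of -0.57 and -0.99 under the 2-fold limit (adjusted p = 0.0228 and 0.0497). Genes entered this list by symbol, and whether both serve gibberellin synthesis was not tested. Of 13 tested genes listed by symbol for jasmonate synthesis, 3 rose, all with OPR symbols. These were OPR1 (log2 3.84, adjusted p = 0.00492), OPR10 (log2 1.79) and OPR5 (log2 1.11). The other 10 did not pass, among them OPR7 (log2 -0.11) and aoc (log2 0.0046). The part of each gene in jasmonate synthesis was not tested. Of 16 genes of the auxin conjugation list 2 rose. They were ILL6 (log2 1.17), of the amidohydrolases that split amide conjugates, and GH3.1 (1.82), of the enzymes that make such conjugates. GH3.5 of this list and JAR1 of the jasmonate list are the same probe set, which did not pass and was counted in both lists. The list medians were log2 0.39 for cytokinin, 0.14 for abscisic acid, -0.099 for gibberellin and -0.094 for jasmonate genes. For the auxin conjugation list, which holds enzymes that make conjugates and enzymes that split them, the median was 0.37. No gene of these hormone lists fell past the threshold, and CPS1 and CPS2 were the only 2 of them lower at an adjusted p of 0.05 or less. No UDP-glycosyltransferase, the enzymes that make the glucosides, was found by name.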

How the data were processed

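Total RNA of mature anthers was hybridised to 6 Affymetrix rice genome arrays, 3 dao and 3 wild type. Extraction was with Trizol and the label was biotin, per the labels' protocols. The values are the deposited intensity of each probe set on a linear scale; per the submitters' processing notes MAS5 was used, with no statement in the sources used here of how background and scale were set. Detection calls and scan dates were not used here. Precision is limited by the 6 arrays.

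Intensities were taken to log2 with no further scaling. The 123 control probe sets and those with a mean under the 40th percentile of the other 57258 were left out, and limma 3.58.1 (R 4.3.3) was run on the remaining 34355 (lmFit, eBayes with a trend, group as the only term, two-sided, Benjamini-Hochberg adjustment over all of them). On simulated data with 34355 probe sets in 4 sets of 50 changed probe sets, the fit called 36% at 2-fold, 76% at 3-fold, 90% at 4-fold and 98% at 6-fold, with 2 false calls. The simulated errors were independent between arrays and probe sets. If the third array of a group is not independent, these rates do not carry over to the data.

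Genes were named by Entrez ID through the names of assembly ASM3414082v1. Of the probe sets, 22436 had 1 gene listed, 95 several and 34727 none. Named with every array's value are members at an adjusted p of 0.05 or less, the 5 with the highest mean signal and those of genes whose probe sets differ in call; BGLU19, BGLU26 and some others were named for their values. Of each list at most 4 genes are named by smallest adjusted p, but GH3.1, past the threshold, and OPR7 and aoc, which did not pass, were named for their values. Numbered C3H symbols, which name zinc finger genes in rice, were taken out of the monolignol list after values were seen. The members and lists were chosen with earlier results of these data known. Alternatives were other filters and scalings, log2(signal + 32), no trend, the replicate number as a block, and arrays left out.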

Additional observations from a re-analysis of the deposited data

How the results depend on the processing

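The count of 4 members past the threshold was 4 or 5 with each array left out, with quantile normalization, median scaling, no filter, no variance trend, a replicate block, and without both arrays numbered 1 or 2. It was 2 with the filter at the 60th percentile, which leaves out BGLU8 and BGLU27, 0 with log2(signal + 32), which shrinks folds of dim probe sets, and 0 without both arrays numbered 3, where the cause was not tested. The 9 members at an adjusted p of 0.05 without a fold limit became 0 without both arrays numbered 3 and 4 to 11 with 1 array left out, with 4 without dao replicate 3 or wild-type replicate 3 and 5 without dao replicate 1. Over all probe sets, the 1157 past the threshold became 405 with log2(signal + 32), 2222 without both arrays numbered 2, 0 without both numbered 3 and 278 to 1684 with 1 array left out. The 3396 at an adjusted p of 0.05 became 2078 without both arrays numbered 1, 0 without both numbered 3 and 299 to 4387 with 1 array left out. Not every tested member was followed by itself under each setting, so sign changes among the rest, such as BGLU3 and BGLU5, were not counted. Among those followed, 2 uncalled genes had differences that changed sign. BGLU34 was at log2 0.42 without both arrays numbered 2 and -0.34 to 0.34 with 1 array left out. BGLU38 was at -0.21 without both numbered 1, -0.028 without both numbered 3 and -0.32 to 0.59 with 1 array left out. With the replicate number as a block, 4 members and 1136 probe sets passed the threshold and 10 and 4273 the adjusted p alone; the added member is BGLU25 (adjusted p = 0.0316). Whether equal numbers pair the arrays was not tested, and no label ties them. The deviations of arrays with the same number correlated at 0.25, 0.18 and 0.087, and those with different numbers at -0.23 to 0.13. For each dao array the highest correlation was with the wild-type array of the same number. Signals near the filter limit the folds of BGLU8 and BGLU27 most.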
